A study of Homo sapiens with 6 samples.

Results

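Transporters in the plasma membrane set how fast a cell takes up and exchanges amino acids, and the 10 transporter genes described here were followed through JMJD1C and AML1-ETO knockdown in leukemia cells. They were chosen by symbol: SLC3A2, SLC7A5, SLC7A11, SLC7A1, SLC1A4, SLC1A5, SLC38A1, SLC38A2, SLC6A9 and SLC43A1. Each had 1 row among the 62016 genes of each table, and all 10 had passed the authors' filter for testing in all 3 tables. RNA came from Kasumi-1, an established human myeloblast line from acute myeloid leukemia whose driver is AML1-ETO, a fusion of RUNX1 with RUNX1T1. Every group received a pLKO shRNA virus and was taken 4 days after infection: the shRNA was a control, shRNA63 against JMJD1C or shRNA95 against JMJD1C, with 2 libraries in each of the 3 groups. JMJD1C belongs to the JmjC histone demethylase family, and the comparisons asked what its depletion did to gene expression. The labels do not tell whether the paired libraries are separate cultures, so errors and p-values may measure technical spread alone. The remaining table set 1 AML1-ETO shRNA library against 1 control, both taken by the authors from published data of a different series.

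Amino acid transporters work as families with distinct substrates. SLC3A2, the CD98 heavy chain, is a single-pass glycoprotein that carries a light chain of the SLC7 family to the cell surface. With SLC7A5 it forms the exchanger for leucine and other large neutral amino acids, and with SLC7A11 it forms the cystine and glutamate exchanger that supplies cysteine for glutathione. SLC1A5 and SLC38A2 bring in glutamine and other small neutral amino acids, which can leave again through SLC7A5 in exchange for leucine. When amino acids run short or the endoplasmic reticulum is stressed, the transcription factor ATF4 is translated and activates many transporter genes together with enzymes of amino acid synthesis. ATF4 binds with C/EBP proteins at a composite site. Leukemic myeloblasts are known to depend on glutamine, cystine and leucine uptake.

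Promoter sequences of the transporters are shown because the genes that fell with shRNA63 included several known ATF4 targets. RefSeq windows of 300 bases (GRCh38.p14), 250 before the start of a transcript and 50 from it, were at hand for 9 of the 10 genes, in 16 windows, since several genes have more than 1 start, and such genes have more chances of a match than a single window. SLC7A11 was not among them. The ATF4 composite site was searched as TGATGNAA on both strands. It was found in 5 of the 16 windows, 1 each of 5 of the 9 genes, against 3.62% of all 35116 windows. The 5 matches are printed along the gene's strand with their flanks, capitals marking the match, which for SLC1A4 and SLC3A2 lies on the opposite strand.
SLC1A4, chr2:64989382-64989409, + strand: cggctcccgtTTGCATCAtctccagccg
SLC3A2, chr11:62881726-62881748, + strand: gcaggactccTTACATCAgctcc
SLC38A1, chr12:46266503-46266530, - strand: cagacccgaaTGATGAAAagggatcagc
SLC7A1, chr13:29595664-29595691, - strand: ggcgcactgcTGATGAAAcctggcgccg
SLC1A5, chr19:46784894-46784921, - strand: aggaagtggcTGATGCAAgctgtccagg
The windows of SLC7A5, SLC38A2, SLC43A1 and SLC6A9 held none. The genes with a match were not the same as those that fell with shRNA63 at q under 0.05. SLC1A4, SLC38A1 and SLC7A1 were both, SLC7A5 and SLC38A2 fell without a match, and SLC3A2 and SLC1A5 had a match only. Further motifs were searched on both strands. The NRF2 site, as TGACNNNGC, was found in 4 of the 16 windows, 1 each of SLC3A2, SLC7A1, SLC7A5 and SLC1A5, and in 13.3% of all windows. The E-box CACGTG was found in 3 of the 16, 1 each of SLC7A5, SLC1A5 and SLC43A1, and in 7.26% of all windows. G and C made up 62.5% of the letters of the 16 windows at the median, against 58.7% for all windows. None of the 12 matches overlapped another. The window of SLC7A5, the transporter gene with the smallest q, is shown whole (chr16:87869458-87869757, - strand), with its E-box and then its NRF2 match in capitals.
SLC7A5: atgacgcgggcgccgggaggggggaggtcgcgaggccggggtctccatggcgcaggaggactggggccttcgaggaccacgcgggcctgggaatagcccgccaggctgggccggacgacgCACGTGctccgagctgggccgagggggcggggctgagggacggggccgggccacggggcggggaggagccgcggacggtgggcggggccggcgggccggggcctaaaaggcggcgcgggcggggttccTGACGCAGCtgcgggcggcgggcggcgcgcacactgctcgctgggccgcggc
A match describes these letters in these windows and not a bound site, and a window without a match says nothing of sites elsewhere in the gene.

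JMJD1C itself stood at 30.4 FPKM with the control shRNA and 13.7 FPKM with shRNA63, a log2 fold change of -1.15 (q = 0.00214) in the authors' deposited table. The shRNA95 libraries, by their label, gave 25.1 against 29.4 FPKM (log2 fold change -0.23, q = 0.938) in the authors' deposited table. Every direction given for shRNA95 therefore rests on the label. The span given for JMJD1C also holds other genes of the table. FPKM divides a gene's fragments by its transcript length and by the library's total, and the authors gave 1 value per group, scaled within a table. Genes with very low values put the depth of the shRNA63 libraries at 0.79 times and that of the shRNA95 libraries at 0.71 times that of the controls. Of 8 markers of the myeloblast, 7 were tested, and MPO is listed at 0 with a flag for too many reads. With MPO counted as 0, the 8 summed to 2702 FPKM in the control and 6731 FPKM with shRNA63 (3 called higher and 1 lower). In the shRNA95 table they summed to 2620 and 3345 FPKM (2 called higher). Over all tested genes 5.12% were called with shRNA63 and 4.4% with shRNA95. The sums hide single markers. KIT was the 1 called lower with shRNA63, from 245.2 to 133.8 FPKM (q = 0.00214). Among the 3 called higher with shRNA63 was CD33, from 19.8 to 35.4 FPKM (q = 0.0135). CD34 stood at 150.7 and 103.2 FPKM with shRNA63, without a call (q = 0.0743). With shRNA95 CD34 was called higher, at 146.1 and 249 FPKM (q = 0.00216). The 6 monocyte markers summed to 104.5 and 204.7 FPKM with shRNA63 (2 of 5 tested called higher) and to 101.2 and 577.5 FPKM with shRNA95 (4 of 5 called higher), with CD14 too low to be tested in either table. The 5 lymphoid markers summed to 11.9 and 3.96 FPKM with shRNA63 (2 called lower) and to 11.5 and 4.55 FPKM with shRNA95, with MS4A1 listed at 0. Erythroid markers summed to at most 0.0749 FPKM, and epithelial markers to 15.1 and 14.7 FPKM with shRNA63 and to 14.6 and 17.0 FPKM with shRNA95. The part of these cell markers in the transporter results was not tested. In bulk RNA, fewer cells that express a gene and less RNA per cell cannot be told apart.

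The transporters spanned a wide range of levels. In the control group of the shRNA63 table the authors' FPKM ran from 193.7 for SLC3A2 down to 1.47 for SLC6A9, which takes up glycine. SLC38A2, a sodium-coupled importer of small neutral amino acids, followed SLC3A2 at 180.6 FPKM, and SLC1A5 at 136.7 FPKM. Then came SLC38A1, a close relative of SLC38A2, at 79.1 FPKM, SLC7A5 at 74.8 FPKM and SLC43A1, a further carrier of large neutral amino acids, at 43.2 FPKM. SLC7A1, the main importer of arginine and lysine in many cells, stood at 19.5 FPKM, SLC1A4, an exchanger of serine, alanine and cysteine, at 13.9 FPKM, and SLC7A11 at 2.84 FPKM. Levels in FPKM are per length and can be ranked between genes, but the tables hold no spread between libraries for a level, so neighbours in this order could not be tested against each other. The first 4 kept their places with shRNA63, and SLC43A1 moved above SLC7A5 (45.4 against 42.6 FPKM). With shRNA95, SLC1A5 (171.8 FPKM) stood above SLC38A2 (159.1 FPKM), and SLC7A5 (97.6 FPKM) above SLC38A1 (69.6 FPKM).

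**Figure D1:**
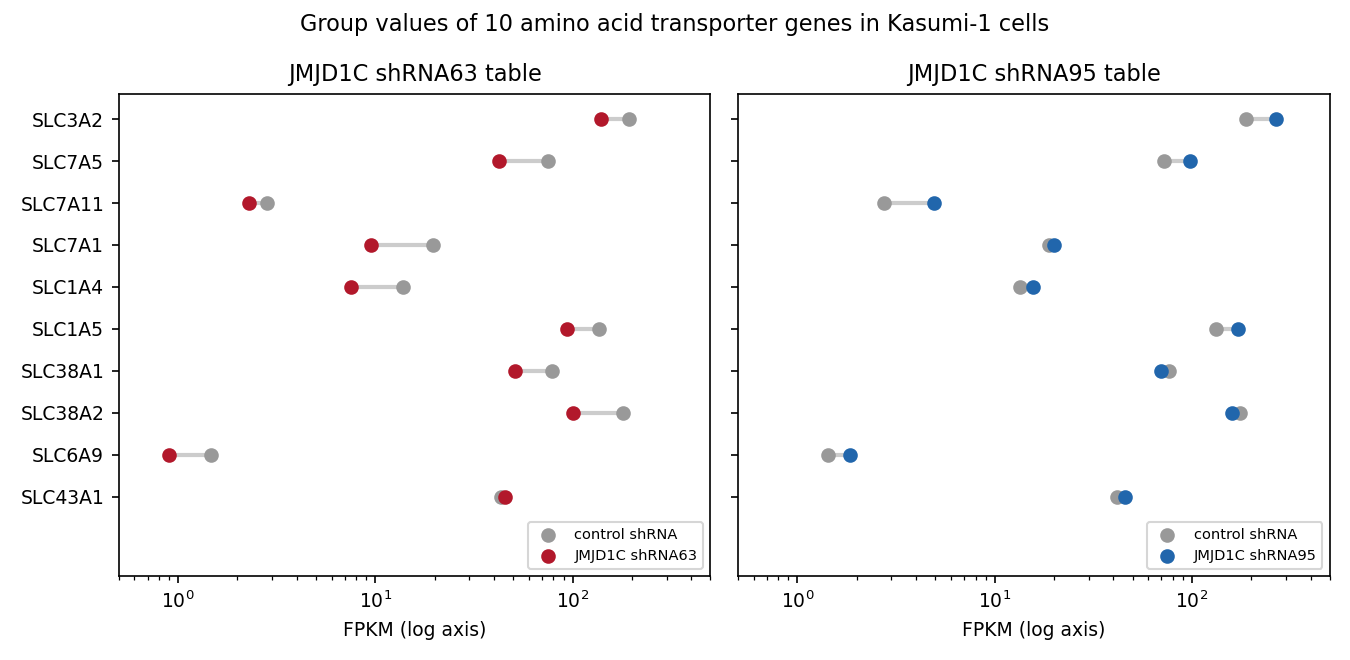
Group values of the 10 transporter genes in FPKM (log axis), control shRNA in grey and JMJD1C shRNA63 (left, red) or JMJD1C shRNA95 (right, blue), 1 authors' value per group from 2 libraries. With shRNA63, 9 of 10 points lie left of their control, and with shRNA95, 8 of 10 lie right of it, 1 of which (SLC7A1) changes side when fold changes are centred on genes of at least 20 FPKM.

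With shRNA63 the transporters were lower as a group, and 5 of the 10 were called: SLC7A5, SLC7A1, SLC1A4, SLC38A1 and SLC38A2 fell, and none rose. A gene was called where the authors' q-value, from Cuffdiff over all tested genes, was under 0.05. Over all 18271 tested genes 5.12% were called, 2.83% lower and 2.29% higher. Genes were chosen with earlier results of these data known, so the share of the 10 against all genes is a description and not a test. The median log2((FPKM + 1)/(FPKM + 1)) of the 10 transporters was -0.58, against 0.0087 for all 14475 tested genes with at least 1 FPKM in the higher group. The FPKM of the 10 genes summed to 745.8 in the control and 492.1 with shRNA63, or 66.0% of control.

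Among the heavy chain and its partners, SLC7A5 fell from 74.8 to 42.6 FPKM, which is -0.81 as log2 fold change (error 0.24, q = 0.00214) in the authors' deposited table. The error of a log2 fold change is its size divided by the authors' test statistic, and it covers the 2 libraries of each group. SLC7A5 (ENSG00000103257) is given on chromosome 16 from 87863629 to 87903094 in hg19, a span that also holds RP4-536B24.2 (13.4 and 6.88 FPKM), and the reads of overlapping genes may be split between them. SLC3A2 (chromosome 11, 62623518 to 62656352) stood at 193.7 and 139 FPKM, which is -0.48 as log2 fold change (error 0.21, 95% interval -0.90 to -0.06, q = 0.341) in the authors' deposited table. SLC7A11 (chromosome 4, 138948576 to 139163503) stood at 2.84 and 2.29 FPKM, at -0.31 (error 0.41, 95% interval -1.12 to 0.50) in the authors' deposited table. SLC3A2 and SLC7A11 thus did not pass the test, and for SLC7A11 the interval allows a change in either direction. The span of SLC7A11 also holds its antisense gene SLC7A11-AS1, at 0.765 and 0.173 FPKM, and without a stated strand protocol their reads cannot be told apart.

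The largest fold change among the 10 belonged to SLC7A1 (chromosome 13, 30083547 to 30169825), which fell from 19.5 to 9.52 FPKM, or 48.8% of control. Its log2 fold change was -1.04 (error 0.37, q = 0.0237) in the authors' deposited table. Its place was at percentile 3.64 among the log2 fold changes of the 14475 genes. SLC1A4 (chromosome 2, 65215611 to 65250999) fell from 13.9 to 7.53 FPKM, which is -0.88 as log2 fold change (error 0.35, q = 0.0156) in the authors' deposited table. Its paralog SLC1A5 (chromosome 19, 47222768 to 47291851) stood at 136.7 and 93.4 FPKM, at -0.55 with an error of 0.60 and no call (q = 0.604) in the authors' deposited table. That error is the widest of the 10, and the span holds 5 genes in the table, among them STRN4 at 85.4 and 88.3 FPKM.

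Both sodium-coupled neutral amino acid transporters fell. SLC38A2 (chromosome 12, 46751972 to 46767561) went from 180.6 to 100.2 FPKM, which is -0.85 as log2 fold change (error 0.25, q = 0.0146) in the authors' deposited table. SLC38A1 (chromosome 12, 46581584 to 46663800) went from 79.1 to 51.3 FPKM, at -0.62 (error 0.27, q = 0.0255) in the authors' deposited table. The glycine transporter gene SLC6A9 (chromosome 1, 44457031 to 44497139) stood at 1.47 and 0.896 FPKM, at -0.72 (error 0.54, q = 0.317) in the authors' deposited table. Its span also holds CCDC24, at 1.13 and 0.735 FPKM, and the reads of overlapping genes may be split between them. SLC43A1 (chromosome 11, 57252007 to 57283259) was the 1 gene above its control, at 43.2 and 45.4 FPKM and 0.07 (error 0.34, 95% interval -0.59 to 0.74) in the authors' deposited table. The called genes thus span neutral and cationic carriers and levels from 13.9 to 180.6 FPKM in the control. The q-values of the 5 called genes lay between 0.00214 and 0.0255, and the nearest uncalled one was 0.317. With p taken from the test statistic in the authors' deposited table, which gives larger p-values than the deposited ones, SLC7A5 (adjusted p = 0.0227) and SLC38A2 (adjusted p = 0.0204) kept their calls. SLC7A1 (adjusted p = 0.106), SLC1A4 (adjusted p = 0.205) and SLC38A1 (adjusted p = 0.297) lost them with that reading of the statistic in the authors' deposited table.

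In the libraries labelled shRNA95 the transporters were not lower, and none of the 10 was called by Cuffdiff. Over all 18006 tested genes 4.4% were called, 1.82% lower and 2.59% higher. At an unadjusted p under 0.05 there were 3 of the 10, SLC7A11, SLC7A5 and SLC3A2, where 12.3% of all tested genes stood at that level. The median log2((FPKM + 1)/(FPKM + 1)) was 0.22, against 0.032 for all 14391 genes with at least 1 FPKM in the higher group, and the FPKM of the 10 summed to 723 in the control and 852.1 with shRNA95.

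SLC7A11 stood at 2.75 FPKM in the control and 4.92 FPKM with shRNA95, a log2 fold change of 0.84 (error 0.42, q = 0.136) in the authors' deposited table. SLC3A2 stood at 187.7 and 265.8 FPKM, at 0.50 (error 0.22, q = 0.36), and SLC7A5 at 72.5 and 97.6 FPKM, at 0.43 (error 0.25, q = 0.195), in the authors' deposited table. These are the subunits of the cystine and the leucine exchangers, and none of the 3 passed the test. For SLC7A11 and SLC3A2 the 95% interval lay above 0 (0.02 to 1.66 and 0.06 to 0.94).

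The remaining genes were closer to their controls with shRNA95. SLC1A5 stood at 132.5 and 171.8 FPKM, at 0.37 (error 0.64), and SLC6A9 at 1.43 and 1.85 FPKM, also at 0.37 (error 0.52), both in the authors' deposited table. SLC1A4 was at 0.23 (error 0.34), SLC43A1 at 0.13 (error 0.34) and SLC7A1 at 0.08 (error 0.42) in the authors' deposited table. SLC38A1 (76.6 and 69.6 FPKM) and SLC38A2 (175.1 and 159.1 FPKM) were the 2 genes below their controls, each at -0.14 with errors of 0.27 and 0.25 in the authors' deposited table. Their 95% intervals reached from -0.67 to 0.40 and from -0.62 to 0.35, so changes of these sizes were not detectable here. SLC7A1, at 18.9 and 19.9 FPKM, had an interval from -0.74 to 0.89, and its sign turned when fold changes were centred on genes of at least 20 FPKM.

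**Figure D2:**
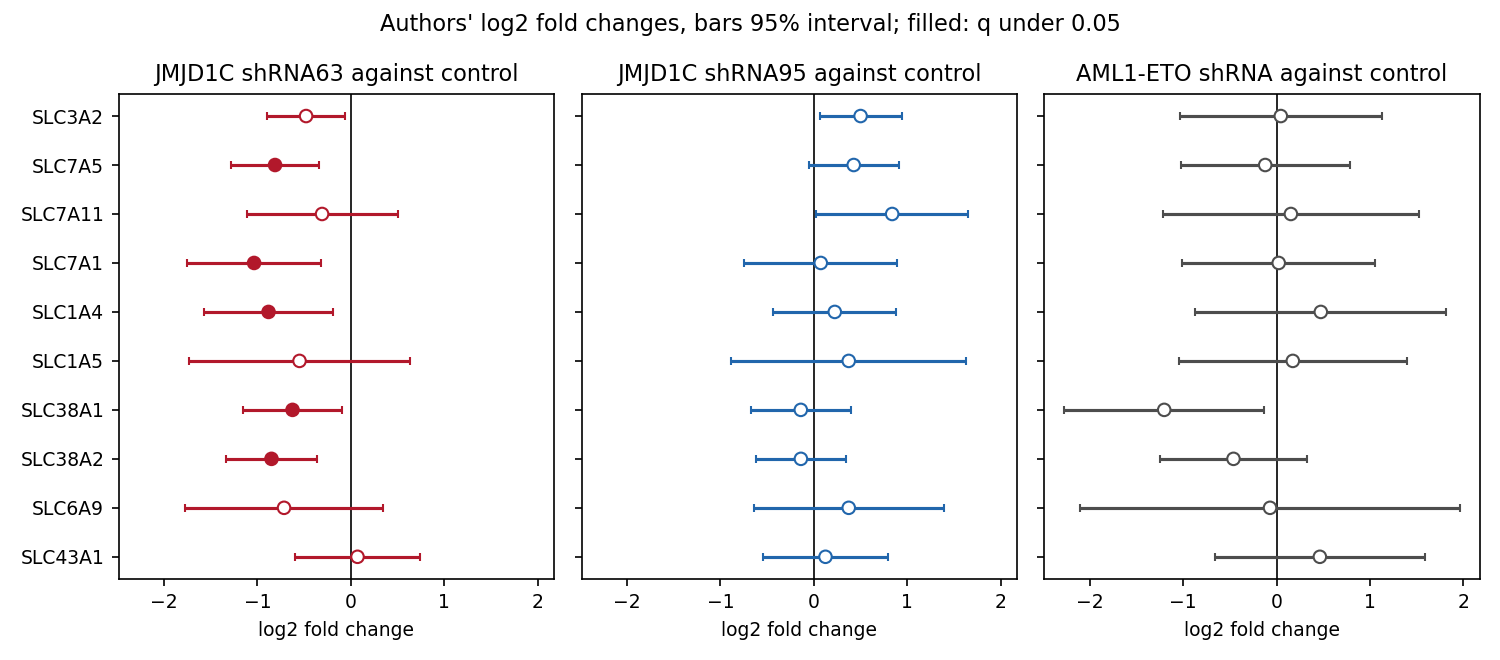
Authors' log2 fold changes of the 10 transporter genes against the matching control for JMJD1C shRNA63, JMJD1C shRNA95 and AML1-ETO shRNA, bars the 95% interval from the authors' test statistic, filled points q under 0.05. The 5 filled points all lie below 0 with shRNA63, and no point is filled in the other panels.

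The hairpins were set against each other by subtracting the log2 fold change with shRNA95 from that with shRNA63, gene by gene, over all 17267 genes tested in both tables. Both comparisons use the same control libraries. All 10 differences were negative, from -1.24 for SLC7A5 to -0.05 for SLC43A1, with a median of -1.04 against -0.03 for all genes. None passed Benjamini-Hochberg adjustment, where 0.84% of all genes did, 0.585% lower and 0.255% higher with shRNA63, and 4 of 10 stood at an unadjusted p under 0.05, where 4.81% of all genes did. From the fold changes and statistics of the authors' deposited tables, SLC7A5 came nearest, at -1.24 (error 0.37, 95% interval -1.96 to -0.52, unadjusted p = 0.000736, adjusted p = 0.0750). SLC3A2 was at -0.98 (error 0.37), SLC1A4 at -1.11 (error 0.49) and SLC7A1 at -1.11 (error 0.56). SLC7A11 differed by -1.15 with an error of 0.59 and SLC6A9 by -1.09 with an error of 0.75, so intervals of both reached 0. SLC38A2 (-0.71, error 0.37) and SLC38A1 (-0.49, error 0.38) differed less. On simulated data this test recovered 0% of differences of 1 on the log2 scale, 37.0% of differences of 2 and 58.5% of differences of 3. The changed genes were drawn at random from all 17267 genes, so these rates are not those of the transporters themselves. A missed threshold does not show that the hairpins act alike. To allow for the shared controls, the squared error of every gene was also divided by 2, a share assumed and not estimated. With that, 3 of the 10 passed, SLC7A5, SLC3A2 and SLC1A4, and 3.47% of all genes.

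**Figure D3:**
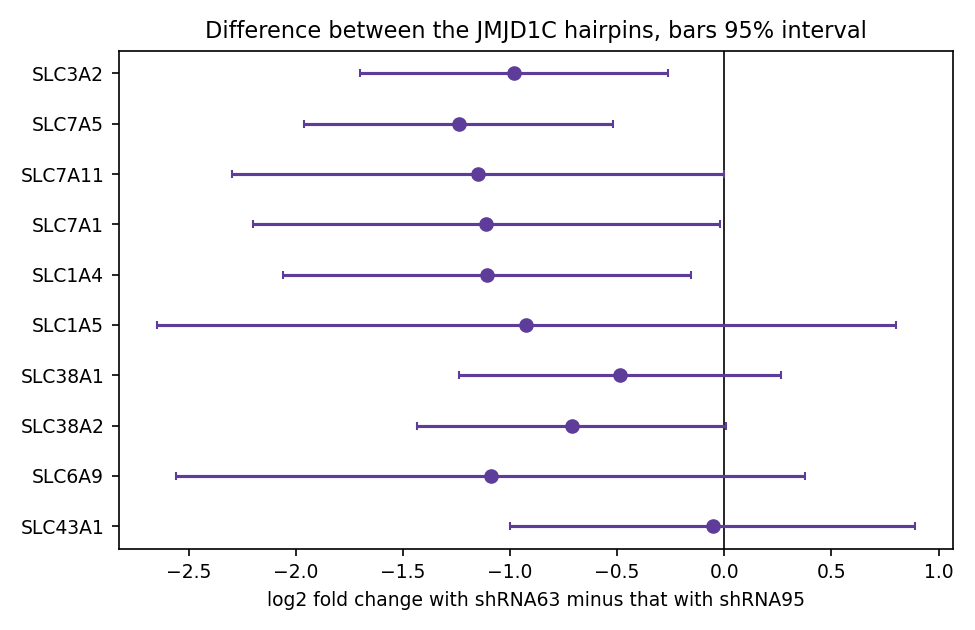
Difference between the hairpins for each transporter gene, as the log2 fold change with shRNA63 minus that with shRNA95, bars the 95% interval. All 10 points lie below 0, and the intervals of 4 genes, SLC3A2, SLC7A5, SLC7A1 and SLC1A4, do not reach 0.

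SLC3A2 pairs with light chains, so their levels were set side by side. SLC7A6, which exchanges arginine for neutral amino acids, was the other abundant light chain gene, at 64.5 FPKM in the control of the shRNA63 table. It was picked for its level. SLC7A5 made up 52.2% and SLC7A6 45.0% of the summed FPKM of 6 light chain genes (SLC7A5, SLC7A6, SLC7A7, SLC7A8, SLC7A10 and SLC7A11), and SLC7A11 made up 1.98%. That sum was 143.4 FPKM in the control and 84.4 FPKM with shRNA63, and SLC3A2 stood at 1.35 and 1.65 times the sum. In the shRNA95 table the sum was 139 and 166 FPKM, and SLC3A2 stood at 1.35 and 1.60 times the sum. SLC7A6 was not called with either hairpin (64.5 and 38.2 FPKM with shRNA63, 62.5 and 62.1 FPKM with shRNA95), as the authors' deposited tables give it. The share of SLC7A5 was 50.5% with shRNA63 and 58.8% with shRNA95. These ratios come from group values and carry no error.

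**Figure D4:**
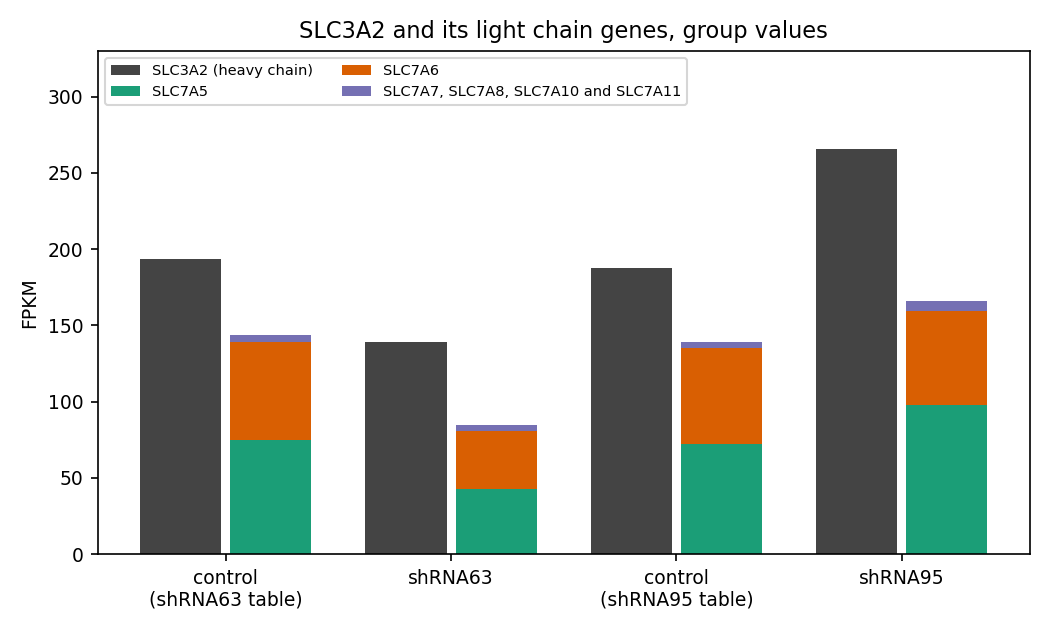
FPKM of SLC3A2 (dark bars) and of its light chain genes (stacked bars) in the control and shRNA groups of both tables, 1 authors' value per group and no error. SLC3A2 stands above the light chain sum in each group, at 1.35 times in both controls, 1.65 times with shRNA63 and 1.60 times with shRNA95.

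With AML1-ETO knockdown none of the 10 transporters was called, where 0.411% of 22406 tested genes were, 0.187% lower and 0.223% higher. That comparison has 1 library on each side, so its test compares those libraries and has no replicate check. At an unadjusted p under 0.05 there was 1 of the 10, where 6.67% of all tested genes stood at that level. It was SLC38A1, at -1.20 (error 0.55, q = 0.605) in the authors' deposited table. SLC38A2 was at -0.46 (error 0.40), SLC1A4 at 0.47 (error 0.69) and SLC43A1 at 0.46 (error 0.57), as the authors' deposited table gives them. The other 6 lay between -0.12 for SLC7A5 and 0.17 for SLC1A5 in the authors' deposited table. SLC38A1 was thus the 1 transporter gene whose interval lay below 0 there (-2.27 to -0.13).

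Other plasma membrane amino acid transporters were mostly too low to be tested. Of 28 listed genes 9 were tested with shRNA63 and 1 was called, and 10 were tested with shRNA95 and 2 were called, against 5.12% and 4.4% of all tested genes. With so few genes, these counts do not set the list apart from that background, and all 3 calls were lost at q under 0.01 and with p from the test statistic. SLC1A3, a glutamate transporter, rose with both hairpins from a very low level, from 0.0898 to 0.442 FPKM (log2 fold change 2.30, q = 0.0471) and from 0.0870 to 0.572 FPKM (2.72, q = 0.0267), in the authors' deposited tables. Its 95% intervals from the test statistic reached from -2.44 to 7.03 and from -2.29 to 7.72. SLC38A3, a glutamine transporter, fell with shRNA95 from 1.90 to 0.882 FPKM (-1.11, q = 0.04995) in the authors' deposited table. The most abundant gene of the list, picked for its level, was SLC38A5, a carrier of glutamine and serine. It stood at 173.4 and 134.9 FPKM with shRNA63 and at 168 and 256.3 FPKM with shRNA95, without a call (q = 0.515 and 0.0761) in the authors' deposited tables.

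Transporters of inner membranes gave 1 call in all. Over all tested genes 5.12% were called with shRNA63 and 4.4% with shRNA95. None of 8 lysosomal transporters was called by Cuffdiff with either hairpin, and at an unadjusted p under 0.05 there were 0 with shRNA63 and 2 with shRNA95, where 13.4% and 12.3% of all tested genes stood at that level. Of 7 tested mitochondrial transporters 1 (14.3%) was called with shRNA63, and 1 gene does not set the list apart from all genes. It was SFXN1, which carries serine into mitochondria and fell from 77.8 to 32.9 FPKM. That is -1.24 as log2 fold change (q = 0.00214) in the authors' deposited table. With shRNA95 it stood at 75.4 and 63.4 FPKM, at -0.25 without a call, in the authors' deposited table. None of the 7 was called with shRNA95 by Cuffdiff, and 0 stood at an unadjusted p under 0.05.

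Of 28 tested genes of the ATF4 pathway and its targets, 8 (28.6%) were called lower with shRNA63 and none higher. Over all tested genes 2.83% were called lower and 2.29% higher. The list was chosen with earlier results of these data known, so its share against all genes is a description and not a test. The median log2 fold change of the 28 was -0.43, against 0.02 for all tested genes. CHAC1, which degrades glutathione, fell from 6.42 to 2.48 FPKM (log2 fold change -1.37, q = 0.00214) in the authors' deposited table. PHGDH, the first enzyme of serine synthesis, was at -1.23, CBS, an enzyme of cysteine synthesis, at -1.23 and DDIT4, an inhibitor of mTORC1 signalling, at -1.22 in the authors' deposited table. ATF4 itself stood at 267 and 207.4 FPKM, at -0.36 without a call (q = 0.283), in the authors' deposited table. With shRNA95 the median was 0.29, and 1 gene of the 28 was called (3.57%, below the 4.4% of all tested genes). It was ATF3, a stress-induced transcription factor, which rose from 4.99 to 9.10 FPKM (0.87, q = 0.0256) in the authors' deposited table. With shRNA63 ATF3 had fallen from 5.15 to 2.52 FPKM (-1.03, q = 0.0237). Both ATF3 calls were lost at q under 0.01 and with p from the test statistic, which left 7 genes of the list called with shRNA63 and 0 with shRNA95. Between the hairpins 3 of the 28, CHAC1, PHGDH and PSAT1, differed after Benjamini-Hochberg adjustment, all lower with shRNA63. Of all genes 0.84% did, 0.585% lower and 0.255% higher with shRNA63.

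Of 11 tested genes of glutathione metabolism and the NRF2 pathway, GSR fell with shRNA63 and no other gene was called. This is 9.09% of the list, where 5.12% of all tested genes were called, and 1 gene does not set the list apart. GSR, glutathione reductase, went from 36.2 to 13.3 FPKM (log2 fold change -1.44, q = 0.00214) in the authors' deposited table. GCLC and GCLM, the subunits of the enzyme that begins glutathione synthesis from cysteine, were at 0.24 and 0.51 with shRNA63 without a call in the authors' deposited table. None was called with shRNA95 by Cuffdiff. At an unadjusted p under 0.05 there were 2 of the 11, where 12.3% of all tested genes stood at that level. Of 25 genes of mTORC1 and its amino acid sensing, RPTOR, a subunit of mTORC1, fell with shRNA63 from 60.5 to 32.1 FPKM (-0.92, q = 0.0343) in the authors' deposited table. LAMTOR2, a subunit of the complex that holds mTORC1 at the lysosome, rose with shRNA95 from 56.6 to 86.9 FPKM (0.62, q = 0.0332) in the authors' deposited table. Each is 1 of 25 genes, or 4% of the list, below the 5.12% and 4.4% called over all genes, and both calls were lost at q under 0.01 and with p from the test statistic. With AML1-ETO knockdown none of the genes of these 6 lists was called in the authors' deposited table, where 0.411% of all tested genes were. At an unadjusted p under 0.05 there were 3, where 6.67% of all tested genes stood at that level. They were 2 of 13 tested other plasma membrane transporters and 1 of 11 glutathione and NRF2 genes.

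**Figure D5:**
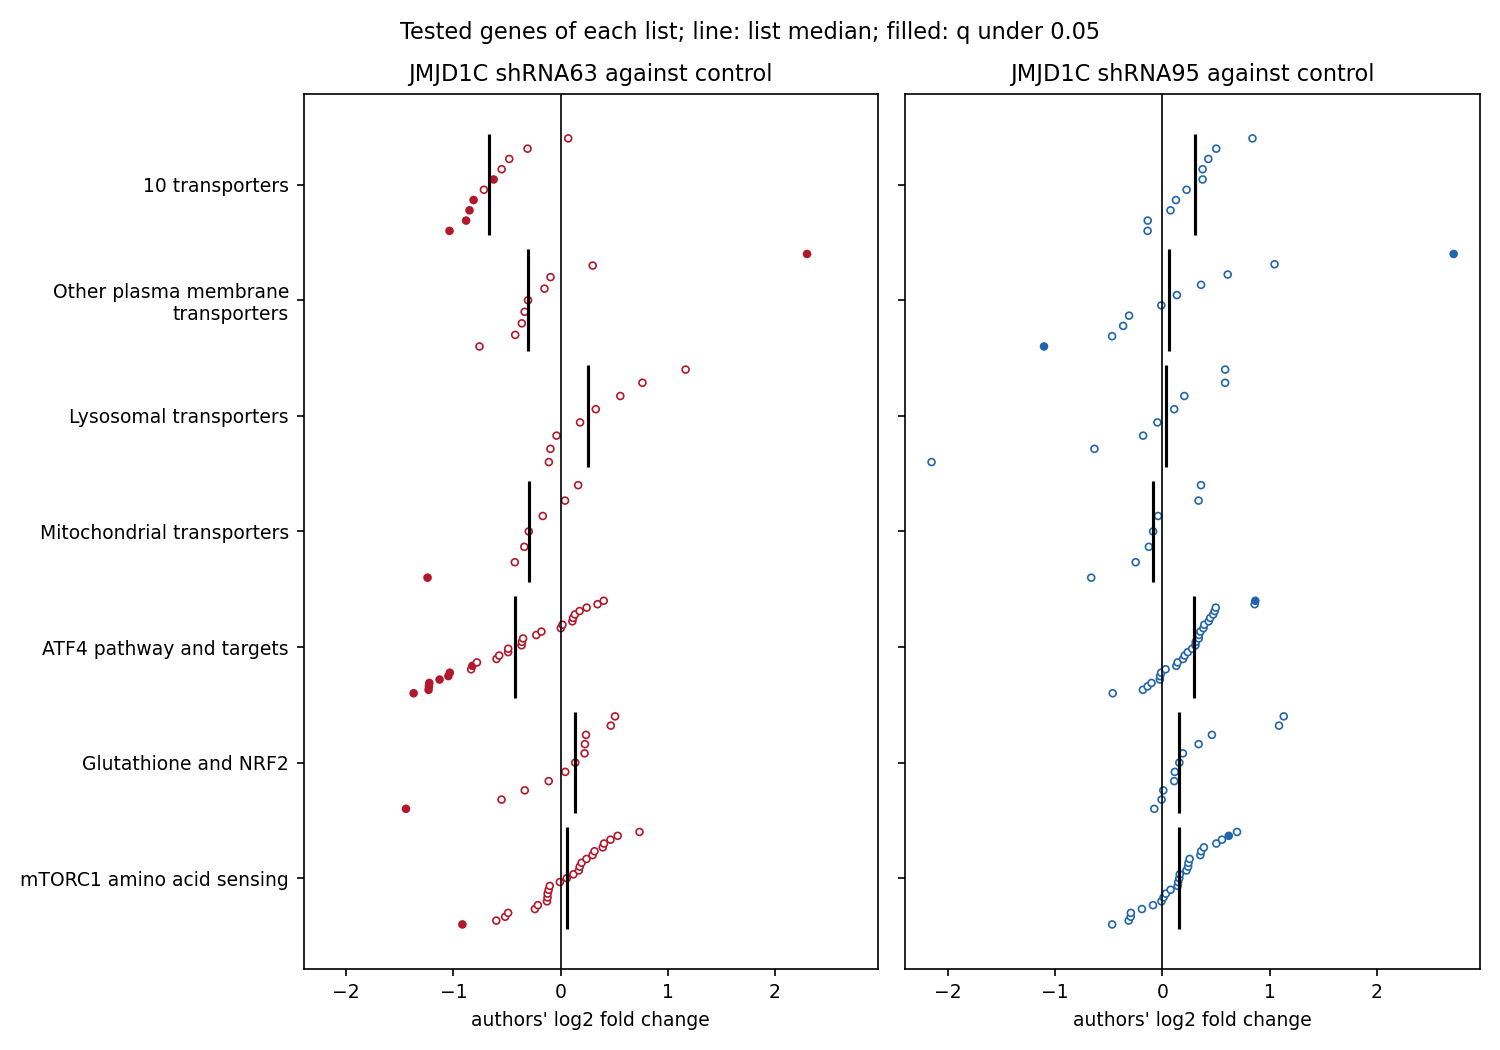
Authors' log2 fold changes of the tested genes of the 10 transporters and of 6 further lists, with JMJD1C shRNA63 (left) and JMJD1C shRNA95 (right), lines the list medians and filled points q under 0.05. With shRNA63 the filled points include 5 of the 10 transporters and 8 of 28 ATF4 pathway genes, which lie below 0, and SLC1A3 above 0.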

How the data were processed

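RNA-seq values came from 3 tables of 62016 Ensembl genes in the layout of Cuffdiff, per the file headers. The submitters' processing notes name TopHat2 2.0.8b, Cuffdiff 2.1.1 and hg19. FPKM values are the authors' group values, with the 2 libraries of a group combined and scaled within a table, so levels were compared within a table. Log2 fold changes, test statistics (a score per gene), p-values and q-values were used as the authors deposited them. In the AML1-ETO table the 2 FPKM columns are of a different series, and were left out. The depth per library is unknown, since read counts were not used here. No test across libraries could be made.

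Errors are the size of the log2 fold change over the test statistic, and 95% intervals are 1.96 errors. At the median the deposited p-values are smaller than the statistic gives: read as a normal deviate, p came to 1.41 statistics with both hairpins and to 1.04 with AML1-ETO. Single genes can go the other way, as SLC3A2 did with both hairpins. The smallest p that Cuffdiff gave was 5e-05. With shRNA63 its q was 0.00214, a floor that several of the named genes share. Hairpins were compared by a two-sided normal test of the difference, with errors raised to their 10th percentile and Benjamini-Hochberg adjustment over 17267 genes. It was tested on simulated data with 200 changed genes among 17267. All transporters were named, and of each further list up to 4 called genes with the largest fold change in each comparison. ATF4, GCLC, GCLM, SLC7A6, SLC38A5, PSAT1 and the genes that share a span with a transporter were named outside this rule, after their values were seen. Genes and lists were chosen with earlier results of these data known. SRXN1 had 2 rows and no matching identifier, and was left out of its list. Locus starts were raised by 1 to count from 1. Python 3.11.15, pandas 2.3.3 and SciPy 1.17.1 were used.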

Additional observations from a re-analysis of the deposited data

Results flagged for a closer look

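Of the 28 tested genes of the ATF4 pathway, 3 had log2 fold changes that differed between the hairpins. The test was that of the difference over 17267 genes with Benjamini-Hochberg adjustment, which 0.84% of all genes passed. The list was chosen with earlier results of these data known. JMJD1C itself was not called in the libraries labelled shRNA95 (log2 fold change -0.23, q = 0.938), so these differences rest on that label. CHAC1 differed by -1.86 on the log2 scale, shRNA63 minus shRNA95 (error 0.49, adjusted p = 0.0234), with -1.37 and 0.49 in the authors' deposited tables. PHGDH differed by -1.37 (error 0.37, adjusted p = 0.0252), with -1.23 and 0.14 in the authors' deposited tables. PSAT1, an enzyme of serine synthesis, differed by -1.54 (error 0.37, adjusted p = 0.00547), with -1.05 and 0.50 in the authors' deposited tables.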

How the results depend on the processing

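No paired analysis was possible because the tables hold 1 value per group, and for the same reason no library could be left out. Of the 10 transporters, the 5 calls with shRNA63 became 1 at q under 0.01 (SLC7A5) and 2 with p from the test statistic, an alternative added after the data were seen. Between hairpins the 0 calls became 1 with errors from the deposited p, 1 without the floor on errors and 1 at an adjusted p under 0.10. They became 3 with the squared error divided by 2 for the shared controls, an assumed share. With errors from p as well, a setting also added later, they became 6. SLC7A5 was among them each time. Over all genes the 145 calls between hairpins became 200 with errors from p and 301 without the floor. They became 599 with the squared error divided by 2, and 1161 with that and errors from p. With p from the statistic, calls over all genes went from 936 to 667 (of 17995) with shRNA63, from 793 to 655 (of 17729) with shRNA95 and from 92 to 400 (of 21727) with AML1-ETO knockdown. The median log2 ratios of the 10 transporters kept their sign under other pseudocounts and centrings with both hairpins. At q under 0.01, calls with shRNA63 became 0 for other plasma membrane transporters and 0 for mTORC1 genes. With shRNA95 they became 0 for other plasma membrane transporters, 0 for ATF4 pathway genes and 0 for mTORC1 genes. At q under 0.10 they became 2 for glutathione and NRF2 genes and 3 for mTORC1 genes with shRNA63. With shRNA95 they became 1 for lysosomal transporters, 2 for ATF4 pathway genes and 2 for mTORC1 genes. With at least 1 FPKM, other plasma membrane transporters had 0 calls with shRNA63 and 1 with shRNA95. With p from the test statistic, calls became 0 for other plasma membrane transporters with either hairpin, 0 for mTORC1 genes with either, and 0 for ATF4 pathway genes with shRNA95. Beyond the changes in threshold, filter and error, the cause was not tested. Depth is unknown per library, and the errors of SLC1A5 and SLC6A9 are the widest.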
